A study of Mus musculus with 22 samples.

Results

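A set of 10 genes that the glucocorticoid receptor is known to switch on directly was followed through whole brains of newborn pups of 2 mouse models of Prader-Willi syndrome (PWS): *Fkbp5*, *Sgk1*, *Tsc22d3*, *Zbtb16*, *Klf9*, *Pdk4*, *Cebpd*, *Cdkn1a*, *Hif3a* and *Errfi1*. They were chosen by gene symbol as direct glucocorticoid targets, and all 10 were found among the 55406 genes that both count tables hold. All 10 had enough counts to be tested in each comparison. RNA of whole brain was compared in 6 PWS-cr pups against 5 wild-type littermates, and in 4 PWS-IC pups against 5 wild-type littermates.

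PWS-cr mice carried the *Snord116*tm1Uta deletion on the paternal chromosome in the heterozygous state, which removes the *Snord116* small nucleolar RNAs and most of *Ipw*. PWS-IC mice were heterozygous for a paternally inherited deletion of the imprinting centre, the element that the paternally expressed genes of the entire PWS interval need to be active. Wild-type pups carried neither deletion, and the labels list no treatment for any pup. All brains were taken at postnatal day 0, in the morning after birth, from pups of both sexes in 4 litters of the PWS-cr series and 2 litters of the PWS-IC series. As labelled, the 4 PWS-IC pups were female, and 4 of their 5 wild-type littermates were male. Both deletions are germline and present in every cell, so the values average over all cell types of the brain. In such bulk tissue, fewer cells of a type and less RNA per cell cannot be told apart.

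Corticosterone, the main glucocorticoid of rodents, enters cells and binds the glucocorticoid receptor *Nr3c1* or the mineralocorticoid receptor *Nr3c2*, which are held in the cytoplasm by heat-shock protein chaperones. The bound receptor moves to the nucleus and sits on a palindromic element near its target genes. The genes it switches on include feedback regulators of the receptor itself, kinases of ion transport, metabolic switches and transcription factors, and in rodents the hormone climbs late in gestation.

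Promoter windows of the members were searched for the palindrome the receptor dimer sits on, for a single arm of it and for paired CATG letters. RefSeq promoter windows (250 bases before to 50 after a start, GRCm38.p6) were used for 8 of the 10 genes, as 17 windows for alternative starts, and for neither *Cebpd* nor *Zbtb16*. Capitals mark the motif in each line.
Sgk1, chr10:21993686-21993730, plus strand, 204 to 160 bases before a start: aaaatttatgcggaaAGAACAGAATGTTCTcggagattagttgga
Tsc22d3, chrX:140600687-140600722, minus strand, 200 to 165 bases before a start: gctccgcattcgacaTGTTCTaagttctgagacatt
Cdkn1a, chr17:29090916-29090959, plus strand, 63 to 20 bases before a start: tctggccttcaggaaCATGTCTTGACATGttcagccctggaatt
The *Sgk1* window holds the full palindrome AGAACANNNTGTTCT, which 3 of 32851 promoters of the table hold (0.00913%). The *Tsc22d3* window holds a single arm of it, TGTTCT, which on either strand occurs in 6233 of the 32851 promoters (19%) and in 4 of the 17 member windows, those of 2 genes, *Sgk1* and *Tsc22d3*. The arm is also part of the full palindrome. The *Cdkn1a* window holds the paired letters CATGNNNNNNCATG, part of the element of the transcription factor p53, which occur in 234 of the promoters (0.712%) and in 1 member window. These are matches of letters, and whether the receptor or p53 occupied them in these brains was not measured.

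Total counts per library ran from 45798407 to 62103143 over the 20 libraries. The imprinted gene *Snrpn*, which depends on the imprinting centre and lies outside the PWS-cr deletion, checks the labels of the PWS-IC series. It had 255 to 425 counts in 3 of the 4 PWS-IC libraries, against 12281 to 16556 in 4 of the 5 wild-type libraries. The library labelled 1_3_IC (female PWS-IC) had 18116 *Snrpn* counts with 64 of *Xist* and 3191 of the Y-linked *Eif2s3y*. The library labelled 1_7_IC (male wild type) had 343 *Snrpn* counts with 124574 of *Xist* and 9 of *Eif2s3y*. Both therefore go against their labels in genotype and in sex. They were kept as labelled in the comparison of 9 libraries, and the fits were repeated over the 7 other libraries, where 3 female PWS-IC pups stand against 4 wild-type pups, 3 of them male. Neuron markers summed to 6715 to 8213 CPM (counts scaled by library size) over all 20 libraries, and pituitary markers to at most 4.41 CPM, so the tissue read as brain.

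Per length of transcript, in the deposited TPM values, the members spanned a range from abundant to scarce, in the same order in the 4 groups except that *Klf9* stood just above *Errfi1* in the PWS-IC series. *Cdkn1a* (chr17:29090976-29100727, mm10), which encodes the cell-cycle inhibitor p21, was the highest, at 50.1 ± 8.23 TPM in PWS-cr brains and 52.3 ± 10.7 TPM in their wild-type littermates (SD, n = 6 and 5), and at 53.1 ± 14.5 TPM in PWS-IC and 47.8 ± 4.43 TPM in wild-type littermates (SD, n = 4 and 5). *Cebpd* (chr16:15887286-15891031), a transcription factor of the acute-phase response, was the lowest, at 2.16 ± 0.132 TPM in PWS-cr and 2.20 ± 0.250 TPM in wild-type brains. Between them, in the wild-type littermates of PWS-cr, stood *Tsc22d3* at 35.9 ± 2.69 TPM, *Sgk1* at 32.4 ± 1.25 TPM, *Fkbp5* at 26.0 ± 2.59 TPM, *Errfi1* at 24.1 ± 1.06 TPM, *Klf9* at 20.4 ± 2.00 TPM, *Zbtb16* at 12.5 ± 0.964 TPM, *Hif3a* at 11.6 ± 4.12 TPM and *Pdk4* at 4.73 ± 0.669 TPM (SD, n = 5). Of neighbours in that order, the mean ± SD ranges of *Tsc22d3* and *Sgk1*, of *Fkbp5* and *Errfi1* and of *Zbtb16* and *Hif3a* overlapped, and those of the other neighbours did not.

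In PWS-cr brains no member differed from wild type beyond the spread between pups. By edgeR's quasi-likelihood test with litter and genotype as terms, 0 of 10 members were called at an adjusted p under 0.05, where 0.0135% of the 22172 genes tested were called. None reached an unadjusted p under 0.05 either (2.07% of all genes did), and DESeq2 likewise called 0 (0.0316% of all genes), with 0 at an unadjusted p under 0.05. In no member did the groups fail to overlap, as they did for 0.0812% of all genes that were higher and 0.0902% that were lower in PWS-cr. Of the log2 fold changes of PWS-cr over wild type, 5 were above and 5 below 0, and their median of 0.01 lay beside a median of 0.00 over all genes tested. The CPM values that follow were scaled for library composition by the trimmed mean of M values (TMM).

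**Figure D1:**
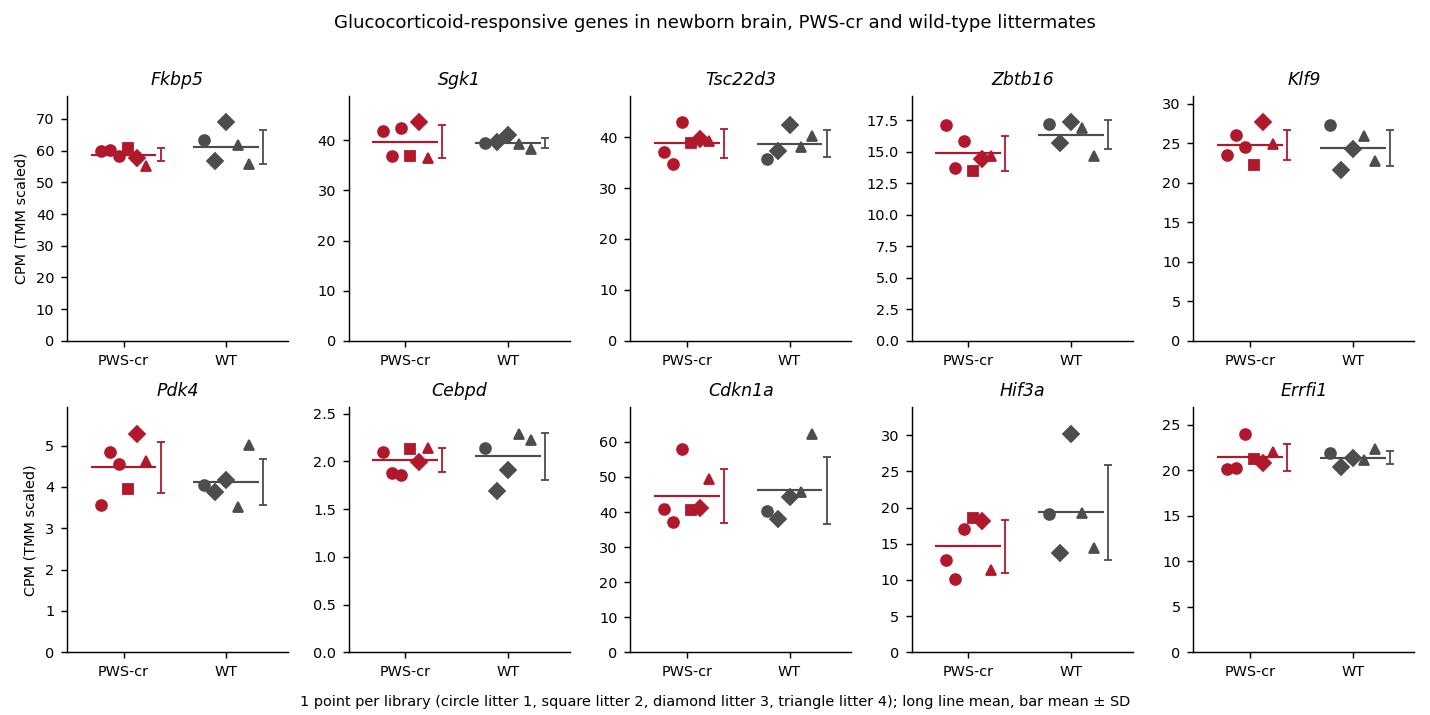
CPM of each of the 10 genes (vertical axes) in every library of the PWS-cr series, with PWS-cr left of wild type. Symbols mark the litter, the line the mean and the bar the mean ± SD. The groups overlap in all 10 panels, and the *Hif3a* panel has the widest scatter, 10.2 to 30.2 CPM.

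The feedback genes of the hormone response had narrow ranges in this series. *Fkbp5* (chr17:28399094-28517527), a chaperone partner that lowers the receptor's affinity for hormone, had a lowest, median and highest value of 55.3, 59.2 and 61.0 CPM in the 6 PWS-cr libraries, against 55.7, 61.7 and 68.9 CPM in the 5 wild-type libraries. Its log2 fold change was -0.10 (SE 0.06, edgeR adjusted p = 0.9999), and it was lower in PWS-cr in each of the 3 litters that held both genotypes, by values of -0.09, -0.12 and -0.09. *Tsc22d3* (chrX:140539528-140600659), a leucine zipper protein that opposes inflammatory transcription factors, had 34.7, 39.1 and 42.9 CPM in PWS-cr and 35.7, 38.1 and 42.3 CPM in wild-type libraries, at a log2 fold change of 0.03 (SE 0.07). The groups of both genes overlapped along most of their ranges.

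Of the kinases and signalling inhibitors, *Sgk1* and *Errfi1* had narrow ranges and *Pdk4* a wider one. *Sgk1* (chr10:21882184-21999903), a kinase that raises ion transport and is named for its response to serum and glucocorticoid, had a lowest, median and highest value of 36.5, 39.3 and 43.5 CPM in PWS-cr, against 38.3, 39.3 and 41.0 CPM in wild-type libraries, with a log2 fold change of 0.02 (SE 0.06). *Errfi1* (chr4:150853919-150868892), an inhibitor of the epidermal growth factor receptor, had 20.2, 21.0 and 24.0 CPM in PWS-cr and 20.4, 21.3 and 22.3 CPM in wild-type libraries, and it varied least of the 10 over these 11 libraries, with a coefficient of variation of 5.29%. *Pdk4* (chr6:5483351-5496309), the kinase that turns pyruvate dehydrogenase off when fuel use shifts away from glucose, had 3.57, 4.59 and 5.29 CPM in PWS-cr, against 3.52, 4.05 and 5.02 CPM in wild-type libraries, with a coefficient of variation of 13.7%. Its log2 fold change was 0.20 (SE 0.13), the highest of the 10 in this series, and the groups overlapped. *Pdk4* was higher in PWS-cr in each of the 3 litters with both genotypes, by 0.08, 0.39 and 0.13.

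Among the transcription factors, *Hif3a* (chr7:17031507-17062427, far from the PWS interval on the same chromosome), a hypoxia-inducible factor subunit that tempers the response of its relatives, had the lowest fold change. Its PWS-cr libraries had 10.2, 11.4, 12.8, 17.0, 18.1 and 18.5 CPM, against 13.7, 14.5, 19.1, 19.3 and 30.2 CPM in wild-type libraries. A single wild-type library, 3_6_Cr, was the highest by far, and the other values of the groups interleaved. The log2 fold change was -0.45 (SE 0.22), with an unadjusted p of 0.070 and an adjusted p of 0.9999 in edgeR, and it was below 0 in each of the 3 litters with both genotypes (-0.55, -0.17 and -0.55). *Zbtb16* (chr9:48654297-48836222), a zinc finger repressor also called PLZF, had a lowest, median and highest value of 13.5, 14.5 and 17.1 CPM in PWS-cr, against 14.7, 16.9 and 17.3 CPM in wild-type libraries, at a log2 fold change of -0.15 (SE 0.08, edgeR unadjusted p = 0.087). It too was below 0 in each of those 3 litters (-0.15, -0.19 and -0.10). *Klf9* (chr19:23141226-23168134), a Krüppel-like factor that is also a thyroid hormone target, had a log2 fold change of 0.04 (SE 0.08), and *Cebpd*, at 1.86 to 2.14 CPM in PWS-cr and 1.69 to 2.29 CPM in wild-type libraries, had one of -0.03 (SE 0.11).

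*Cdkn1a* spread widely but without regard to genotype. It had a lowest, median and highest value of 37.1, 41.1 and 58.1 CPM in PWS-cr, against 38.0, 44.4 and 62.4 CPM in wild-type libraries, and a log2 fold change of 0.02 (SE 0.14). One library of each genotype carried the high value, 1_5_Cr of PWS-cr and 4_2_Cr of wild type.

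In PWS-IC brains as labelled, all 10 fold changes were above 0, but no member was called. edgeR called 0 of 10 at an adjusted p under 0.05, as it called 0% of the 22367 genes tested. With 1_3_IC and 1_7_IC kept as labelled, *Snrpn* was thus not called either, so 0 calls say little here. DESeq2 also called 0 of 10, where it called 0.00447% of all genes. At an unadjusted p under 0.05 edgeR counted 4 members, all higher in PWS-IC, where 3.73% of all genes were higher, 4.5% lower and 8.23% either. The median log2 fold change of the 10 was 0.21, against 0.00 over all genes tested. For none of the 10 did the groups fail to overlap (1.14% of all genes had every PWS-IC library above every wild-type library, and as many had every one below).

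Over the 7 libraries without 1_3_IC and 1_7_IC, 1 member was called, *Cebpd*, where edgeR called 0.242% of 21913 genes, 0.0821% as higher and 0.16% as lower. All 10 fold changes were again above 0, with a median of 0.31 against 0.00 over all genes. At an unadjusted p under 0.05, 8 members were higher and 0 lower, where 6.24% of all genes were higher, 6.53% lower and 12.8% either. That count was 5 without 1_10_IC and 6 to 8 without any other of the 7, and the fold change of *Cdkn1a* fell below 0 without 1_10_IC (-0.15) and without 1_5_IC (-0.015). In 2 genes, *Cebpd* and *Pdk4*, every PWS-IC library lay above every wild-type library, as in 4.84% of all genes, and in no member were they all below, as in 5.48%. DESeq2 on the same 7 libraries also called *Cebpd* alone of the 10 (1.02% of all genes).

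**Figure D2:**
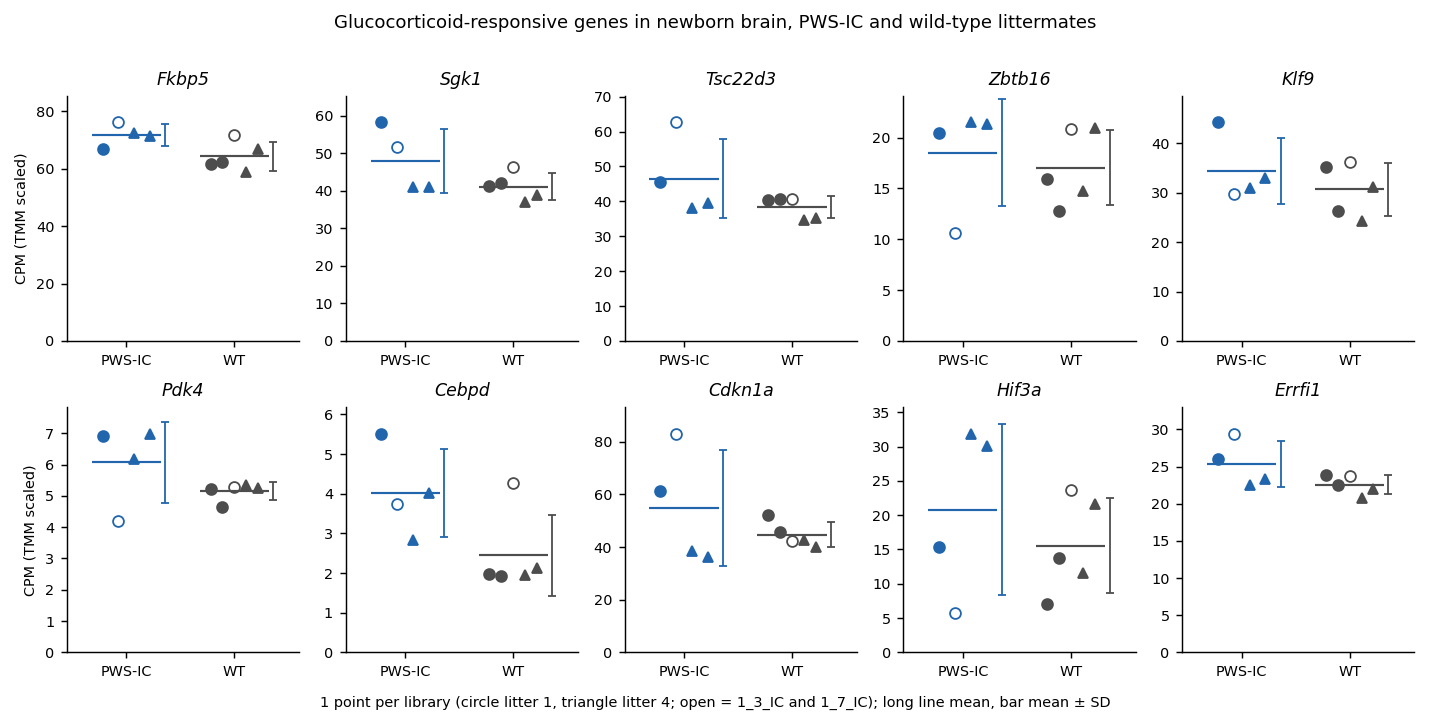
CPM of each of the 10 genes (vertical axes) in every library of the PWS-IC series, with PWS-IC left of wild type. Symbols mark the litter, open symbols the libraries labelled 1_3_IC and 1_7_IC, the line the mean and the bar the mean ± SD. In the *Cebpd* panel the 4 PWS-IC libraries lie at 2.84 to 5.52 CPM, and the 4 filled wild-type points lie at 1.93 to 2.13 CPM.

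*Cebpd* had the highest fold change of the 10 in the comparison of 9 libraries. It had 5.52 and 3.74 CPM in the litter 1 libraries 1_10_IC and 1_3_IC and 2.84 and 4.01 CPM in the litter 4 libraries 4_4_IC and 4_5_IC of PWS-IC, against 1.98, 1.93 and 4.27 CPM in 1_1_IC, 1_5_IC and 1_7_IC and 1.94 and 2.13 CPM in 4_3_IC and 4_6_IC of wild type. All PWS-IC libraries were thus above 4 of the 5 wild-type libraries, and the library labelled 1_7_IC lay among the PWS-IC values. These values rest on 150 to 293 counts in PWS-IC and 104 to 262 in wild-type libraries, the fewest of the 10 genes. The means were 4.03 ± 1.11 CPM in PWS-IC and 2.45 ± 1.02 CPM in wild type (SD, n = 4 and 5), and the log2 fold change was 0.76 (SE 0.25), with an unadjusted p of 0.0131 and an adjusted p of 0.565 in edgeR.

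Without the libraries labelled 1_3_IC and 1_7_IC, *Cebpd* averaged 4.12 ± 1.34 CPM in PWS-IC and 2.00 ± 0.0928 CPM in wild-type brains (SD, n = 3 and 4), a 2.10-fold difference with a log2 fold change of 1.07 (SE 0.18, edgeR adjusted p = 0.0476, DESeq2 adjusted p = 0.000125). Within litters the log2 difference was 1.48 in litter 1, with 1 PWS-IC and 2 wild-type pups, and 0.72 in litter 4, with 2 of each. The call rested on single libraries. When each of the 7 was left out in turn, edgeR's adjusted p for *Cebpd* was 0.0752 to 0.337 in 6 cases (without 1_1_IC, 1_10_IC, 1_5_IC, 4_3_IC, 4_5_IC and 4_6_IC) and 0.0098 without 4_4_IC, while the log2 fold change stayed between 0.76 and 1.25. With sex as labelled in the model, the log2 fold change was 1.27 (SE 0.32) and edgeR's adjusted p 0.0960. That fit thus called 0 members (0.794% of all genes). It had 3 members at an unadjusted p under 0.05, where 3802 of the 21913 genes tested were.

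The sum of red-cell genes, like *Cebpd*, was higher in the PWS-IC libraries than in every wild-type library of this series but 1_7_IC. Of 8 erythroid markers listed, 7 were measured, none of them at 0, and their summed level was 391 to 674 CPM in the 4 PWS-IC libraries, against 138 to 327 CPM in 4 wild-type libraries and 1012 CPM in the library labelled 1_7_IC. In the fit on 7 libraries the fold changes of all 7 markers were above 0, 5 at an unadjusted p under 0.05, and edgeR called *Hbb-bt*, an adult beta globin, at a log2 fold change of 1.08 (adjusted p = 0.0365). In the PWS-cr series the sum was 90.1 to 143 CPM in PWS-cr and 93.4 to 112 CPM in wild-type libraries, and *Cebpd* was level there. The part of red cells in the *Cebpd* difference was not tested. Microglia markers, another possible source of *Cebpd*, summed to 81.1 to 116 CPM in the 3 PWS-IC libraries and 92.5 to 136 CPM in the 4 wild-type libraries without the doubtful pair, and to 174 CPM in 1_3_IC and 83.9 CPM in 1_7_IC. Of the 8 microglia markers, 7 had fold changes below 0 over the 7 libraries, with a median of -0.12 on the log2 scale. The part of microglia in the *Cebpd* difference was not tested either.

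**Figure D3:**
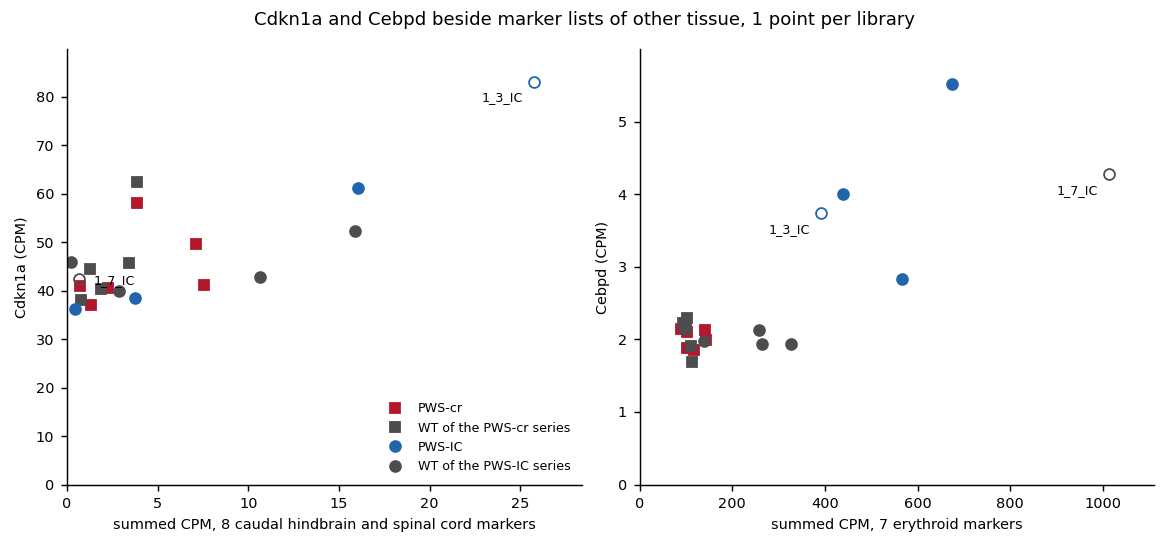
Left, *Cdkn1a* CPM (vertical) against the summed CPM of 8 caudal hindbrain and spinal cord markers. Right, *Cebpd* CPM (vertical) against the summed CPM of 7 erythroid markers. Each point is a library, squares of the PWS-cr series and circles of the PWS-IC series, and open symbols are the libraries labelled 1_3_IC and 1_7_IC. In the right panel the wild-type libraries of the PWS-IC series other than 1_7_IC sit at 138 to 327 CPM of erythroid markers, below its PWS-IC libraries.

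The metabolic kinase *Pdk4* was the other gene whose groups separated without the libraries labelled 1_3_IC and 1_7_IC, as 4.84% of all genes did upward. As labelled its groups overlapped. It had 6.91, 4.21, 6.17 and 6.99 CPM in the PWS-IC libraries 1_10_IC, 1_3_IC, 4_4_IC and 4_5_IC, against 5.23, 4.66, 5.30, 5.35 and 5.24 CPM in the wild-type libraries 1_1_IC, 1_5_IC, 1_7_IC, 4_3_IC and 4_6_IC. Only the library labelled 1_3_IC fell below wild type among the PWS-IC libraries, and it was the lowest of all 9. As labelled the log2 fold change was 0.22 (SE 0.15), and over the 7 libraries it was 0.39 (SE 0.11, edgeR unadjusted p = 0.0044, adjusted p = 0.245), from means of 6.69 ± 0.456 CPM in PWS-IC and 5.12 ± 0.313 CPM in wild type (SD, n = 3 and 4).

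The feedback genes did not pass adjustment in PWS-IC, and their groups overlapped. *Fkbp5* had 67.0, 76.2, 72.6 and 71.3 CPM in the PWS-IC libraries, against 61.8, 62.5, 71.8, 58.8 and 67.0 CPM in wild-type libraries, in the same order of libraries. The lowest PWS-IC library lay below the 2 highest wild-type libraries. Its log2 fold change was 0.16 (SE 0.08, edgeR adjusted p = 0.565) as labelled and 0.17 (SE 0.06, adjusted p = 0.330) over the 7 libraries. *Tsc22d3* had 45.5, 62.7, 38.2 and 39.7 CPM in PWS-IC, against 40.5, 40.7, 40.6, 34.8 and 35.2 CPM in wild-type libraries. Litter 1 was higher than litter 4 in both genotypes, and the library labelled 1_3_IC stood far above the rest. Choroid plexus markers were also highest in that library, at a sum of 1338 CPM against 511 to 779 CPM in the other 8, and their part in its *Tsc22d3* value was not tested. Without it and 1_7_IC the log2 fold change of *Tsc22d3* was 0.16 (SE 0.06), against 0.30 (SE 0.10) with them, and neither passed adjustment in edgeR (adjusted p = 0.315 and 0.565).

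*Sgk1* had 58.3, 51.8, 41.1 and 41.1 CPM in PWS-IC, against 41.3, 42.2, 46.4, 37.1 and 38.8 CPM in wild-type libraries. The difference lay mostly in litter 1, at 0.48 on the log2 scale over the 7 libraries, against 0.12 in litter 4. Its fitted log2 fold change was 0.24 (SE 0.08, edgeR adjusted p = 0.565) as labelled and 0.27 (SE 0.08, adjusted p = 0.258) over the 7. *Errfi1* had 26.0, 29.4, 22.5 and 23.4 CPM in PWS-IC, against 23.8, 22.5, 23.7, 20.8 and 21.9 CPM in wild-type libraries, with log2 fold changes of 0.18 (SE 0.08) and 0.14 (SE 0.07). Within each litter, both libraries labelled PWS-IC lay above every library labelled wild type for *Errfi1* in CPM. In the deposited TPM this did not hold in litter 1. There the library labelled 1_3_IC, at 24.6 TPM, lay below 1_1_IC at 24.8 TPM and 1_7_IC at 24.9 TPM.

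The fold changes of the factors *Hif3a*, *Zbtb16* and *Klf9* were larger without the 2 libraries in doubt. *Hif3a* had 15.4, 5.70, 31.9 and 30.1 CPM in PWS-IC, against 7.05, 13.8, 23.6, 11.6 and 21.7 CPM in wild-type libraries. The library labelled 1_3_IC held the lowest value of all 9, and the 2 highest values were those of the PWS-IC pups of litter 4. The log2 fold change was 0.16 (SE 0.44) as labelled and 0.78 (SE 0.23, edgeR adjusted p = 0.261) over the 7 libraries. *Zbtb16* had 20.4, 10.6, 21.5 and 21.4 CPM in PWS-IC, against 15.9, 12.8, 20.8, 14.7 and 20.9 CPM in wild-type libraries, with 1_3_IC again the lowest. Its log2 fold change was 0.07 (SE 0.21) as labelled and 0.37 (SE 0.12, edgeR adjusted p = 0.294) over the 7. *Klf9* had 44.2, 29.7, 31.0 and 32.9 CPM in PWS-IC, against 35.2, 26.2, 36.2, 24.3 and 31.1 CPM in wild-type libraries, and log2 fold changes of 0.19 (SE 0.14) and 0.34 (SE 0.12, edgeR adjusted p = 0.302).

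*Cdkn1a* was the member whose fold change all but vanished without the 2 libraries. It had 61.2, 83.1, 38.5 and 36.2 CPM in PWS-IC, against 52.3, 45.8, 42.4, 42.8 and 40.0 CPM in wild-type libraries. The libraries labelled PWS-IC in litter 1, with the doubtful 1_3_IC at the top, held the highest values. Those of litter 4 held the lowest. The log2 fold change was 0.28 (SE 0.16) as labelled and 0.05 (SE 0.10, edgeR unadjusted p = 0.62) over the 7 libraries. Summed markers of caudal hindbrain and spinal cord were 25.8, 16.0 and 15.9 CPM in 1_3_IC, 1_10_IC and 1_1_IC, the libraries with the 3 highest *Cdkn1a* values. The other 6 of the series had 0.204 to 10.6 CPM. Where each brain was cut is not stated. *Hoxb8* made up 79.2% to 81.0% of the list's counts in the 4 libraries with the highest sums. In the PWS-cr series the libraries with the highest *Cdkn1a* had sums of 3.85 and 3.88 CPM, and the library with the highest sum, 7.54 CPM, had 41.2 CPM of *Cdkn1a*. The part of this tissue in the *Cdkn1a* values was not tested.

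**Figure D4:**
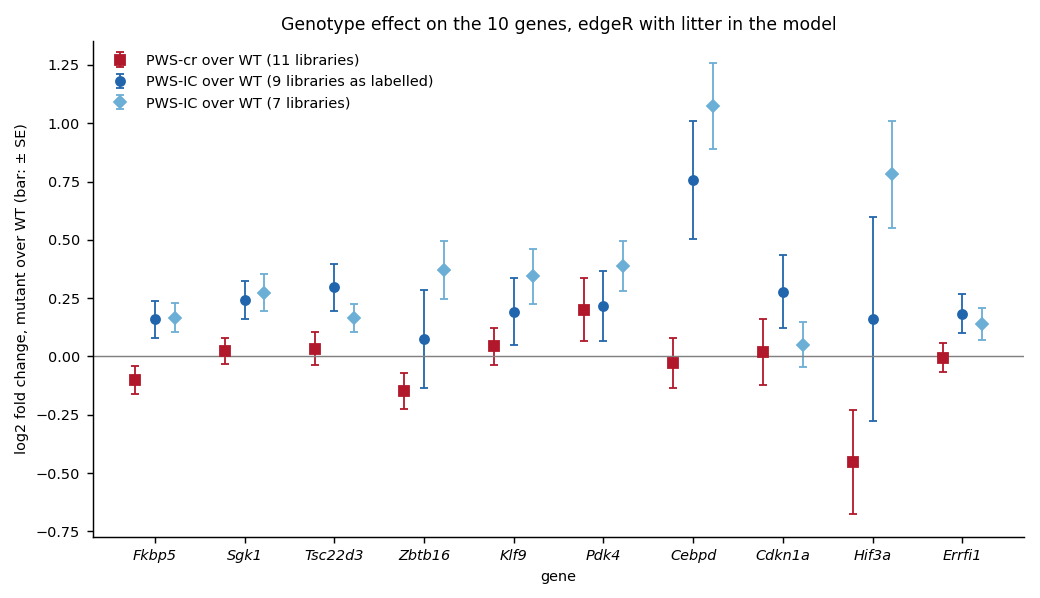
log2 fold change of mutant over wild type with its SE for each of the 10 genes, for PWS-cr (11 libraries), PWS-IC (9 libraries as labelled) and PWS-IC without 1_3_IC and 1_7_IC (7 libraries). The PWS-cr points lie between -0.45 and 0.20, and the PWS-IC points all lie above 0, up to 0.76 over 9 libraries and 1.07 over 7.

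Whether the genotype effect differed between the models was tested in a joint fit over both series, as the PWS-IC effect minus the PWS-cr effect. edgeR called 0 of 10 members (0% of 23771 genes were called) and DESeq2 called 0 (3 of the 23771 genes). At an unadjusted p under 0.05 stood 4 members, all with a larger effect in PWS-IC, where 2.61% of all genes did so and 4.73% differed either way: *Cebpd* at 0.80 (SE 0.29), *Fkbp5* at 0.27 (SE 0.10), *Tsc22d3* at 0.28 (SE 0.13) and *Sgk1* at 0.24 (SE 0.10) on the log2 scale. With the doubtful pair left out, edgeR again called 0 members (0.182% of genes were called), with 5 at an unadjusted p under 0.05 (8.16% of genes; 4.03% with a larger effect in PWS-IC). *Cebpd* differed by 1.10 (SE 0.22), with an adjusted p of 0.0592 in edgeR and 0.00616 in DESeq2. DESeq2 called 61 of 23574 genes without the pair, *Cebpd* alone among the members. *Hif3a* differed by 1.23 (SE 0.37), with an edgeR adjusted p of 0.465.

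**Figure D5:**
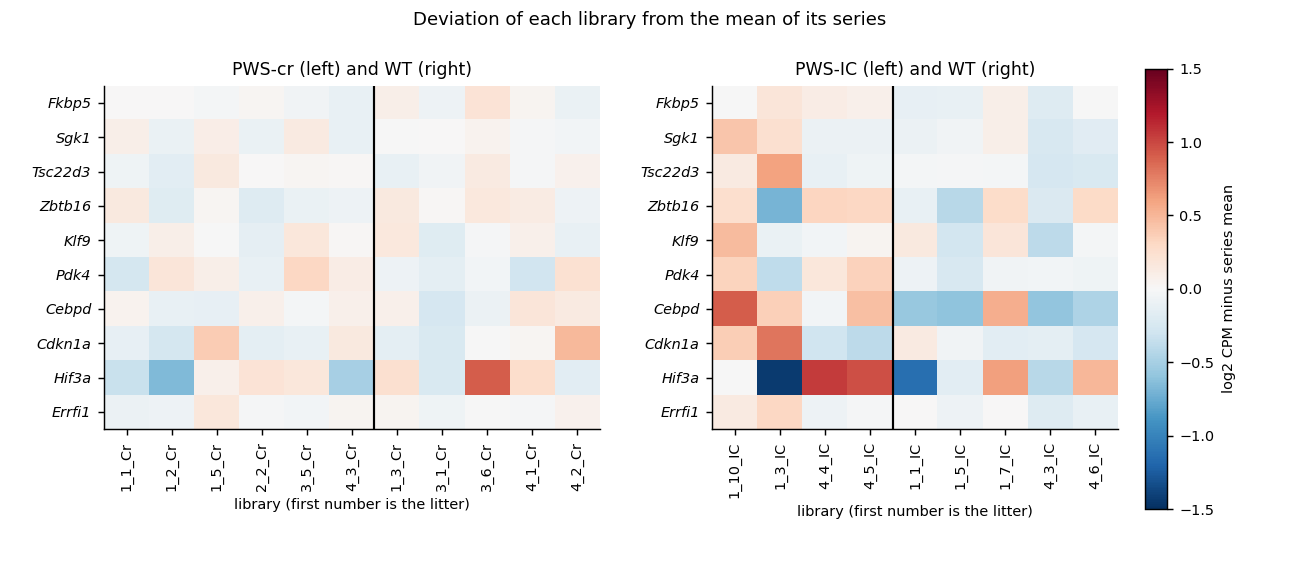
log2 CPM of each of the 10 genes minus its mean over the series, in every library of the PWS-cr series (left panel) and the PWS-IC series (right panel), with mutant libraries left of the black line. Blue is below and red above the mean. The PWS-IC panel is the more strongly coloured, led by *Hif3a*, which spans 5.70 to 31.9 CPM there.

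The members varied more between pups of the PWS-IC series than between those of the PWS-cr series. The coefficient of variation was 5.29% to 32.6% over 11 libraries of the PWS-cr series and 8.58% to 53.2% over 9 libraries of the PWS-IC series, with *Hif3a* at the top of both. That of *Cebpd* was 41.1% in the PWS-IC series, against 8.91% in the PWS-cr series. These values take both genotypes together and include the libraries labelled 1_3_IC and 1_7_IC. Whether other genes also varied more in the PWS-IC series was not tested. In CPM the library labelled 1_3_IC was the highest of its series for 4 genes and the lowest for 3, and 4_3_IC, a wild-type library, was the lowest for 5. The scale matters for 1_3_IC: *Fkbp5* was the highest of 9 libraries there in TMM-scaled CPM (76.2) but at 24.1 TPM close to the lowest, and *Errfi1* stood at 29.4 CPM, also the highest, but at 24.6 TPM amid the others, whereas *Tsc22d3* at 43.2 TPM and *Cdkn1a* at 70.0 TPM were the highest on both scales.

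Pups high in *Fkbp5*, a common readout of the response, were not reliably high in the other 9 members. Of 18 correlations computed over the libraries of a series on log2 CPM, 0 passed adjustment by either measure. Each correlation pooled both genotypes of its series, with no term for genotype. The closest was *Hif3a* over the 11 libraries of the PWS-cr series, at a Pearson r of 0.73 (permutation p = 0.0115, adjusted 0.208) and a Spearman rho of 0.69 (permutation p = 0.0229, adjusted 0.413). Without the 2 libraries farthest from the median of *Fkbp5*, which narrows the range of *Fkbp5*, the r fell to 0.31 and the rho to 0.53. After litter means were subtracted the r stood at 0.79. *Cebpd* over the 9 libraries of the PWS-IC series had an r of 0.68 (exact permutation p = 0.0516, adjusted 0.365) and a rho of 0.57. In the PWS-IC series without the doubtful pair, *Hif3a* reached an r of 0.87 with *Fkbp5* (adjusted exact permutation p = 0.105) and *Zbtb16* one of 0.85 (0.111). The rho of *Hif3a* was 0.96 there (adjusted permutation p = 0.05). Without the 2 libraries farthest from the median of *Fkbp5* instead, *Hif3a* had an r of 0.91 over 7 libraries of that series. That r passed adjustment (adjusted permutation p = 0.0179). Over the 7 libraries without the doubtful pair, *Fkbp5*, *Hif3a* and *Zbtb16* were each higher in PWS-IC, at log2 fold changes of 0.17, 0.78 and 0.37. Sex and genotype also largely coincide there. The part of genotype or sex in these correlations was not tested.

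As a description over all 20 libraries, with the mean of each series subtracted, the 8 genes whose log2 CPM was most like that of *Fkbp5* among 21134 genes were *Igfbp3* (r = 0.84), *Pdcd7* (0.80), *Rbmx2* (0.79), *Mob2* (0.78), *Nop14* (0.78), *Zscan21* (0.78), *Brap* (0.77) and *Tle1* (0.77). No member was among them: the nearest, *Cebpd*, stood at rank 602 (r = 0.53). Without the doubtful pair *Hif3a* stood at rank 6 (0.78) and *Zbtb16* at rank 83 (0.70). Among the members themselves the closest were *Tsc22d3* and *Errfi1* (0.91), *Cdkn1a* and *Errfi1* (0.85), *Tsc22d3* and *Cdkn1a* (0.83) and *Zbtb16* and *Hif3a* (0.76) over 20 libraries. The libraries share their depth and tissue composition, differences between genotypes were not subtracted, and these values carry no test.

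No gene of the machinery upstream of the members was called in either model. Of 15 genes for receptors, chaperones, coactivators, steroid enzymes and hypothalamic and pituitary hormones, edgeR called 0 in PWS-cr, with 0 at an unadjusted p under 0.05, and 0 in PWS-IC, with 1 higher and 1 lower at that limit (3.73% and 4.5% of all genes). Over the 7 libraries it called 0, with 0 higher and 1 lower (6.24% and 6.53% of all genes). *Nr3c1*, the glucocorticoid receptor, averaged 30.2 ± 3.30 CPM in PWS-IC and 33.8 ± 5.60 CPM in wild-type brains (SD, n = 4 and 5), at a log2 fold change of -0.15 (SE 0.13). Its log2 fold change was 0.08 (SE 0.07) in PWS-cr and -0.21 (SE 0.11, edgeR unadjusted p = 0.074) over the 7 PWS-IC libraries. *Avp*, the neuropeptide vasopressin that helps drive pituitary corticotropin, had a log2 fold change of 0.62 (unadjusted p = 0.042) in PWS-IC as labelled, and *Ncoa2*, a coactivator of steroid receptors, had -0.35 (unadjusted p = 0.0136), both in edgeR. Without the doubtful pair *Avp* was at 0.21 (unadjusted p = 0.217) and *Ncoa2* at -0.21 (unadjusted p = 0.0177).

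Other genes known to respond to glucocorticoids were described by a further list. Of 20 listed, 19 were tested in each series, and in PWS-cr edgeR called 0, with 0 at an unadjusted p under 0.05 and 10 fold changes above 0. In PWS-IC as labelled edgeR called 0, with 5 higher at an unadjusted p under 0.05 (3.73% of all genes). Those of smallest p were *Nfkbia*, the inhibitor of NF-kappaB, at a log2 fold change of 0.44 as labelled and 0.42 over the 7 libraries, the metallothioneins *Mt1* (0.54 in both fits) and *Mt2* (0.41 and 0.47), and *Glul*, the glutamine synthetase of astrocytes (0.22 and 0.23). In the fit on 7 libraries 8 were higher and 2 lower at that limit (6.24% and 6.53% of all genes), and 1 was called (0.242%), *Per1*, a clock repressor that glucocorticoid switches on. The median log2 fold change of the 19 was 0.22 as labelled and 0.13 over the 7 libraries, and the 2 lower over the 7 were *Gjb6*, an astrocyte gap-junction protein, at -0.36 and *Angptl4*, a lipase inhibitor named after its value was seen, at -0.59.

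*Per1* had 61.1, 35.3, 50.4 and 53.6 CPM in the PWS-IC libraries 1_10_IC, 1_3_IC, 4_4_IC and 4_5_IC, against 32.6, 37.9, 54.7, 34.2 and 40.3 CPM in the wild-type libraries 1_1_IC, 1_5_IC, 1_7_IC, 4_3_IC and 4_6_IC. Apart from the 2 libraries in doubt, which lay within the other genotype's range, the PWS-IC values were all above the wild-type ones. The log2 fold change was 0.62 (SE 0.09, edgeR adjusted p = 0.0175) over the 7 libraries and 0.33 (SE 0.19, adjusted p = 0.565) as labelled. The call over the 7 libraries was lost without 1_10_IC (adjusted p = 0.195), 4_3_IC (0.122) and 4_5_IC (0.0522) and held without each of the other 4 (0.0081 to 0.0400). In the PWS-cr series *Per1* averaged 42.5 ± 2.11 CPM in PWS-cr and 43.4 ± 2.51 CPM in wild-type brains (SD, n = 6 and 5), and the 2 genotype effects differed by 0.66 (SE 0.11, edgeR adjusted p = 0.0188) without the doubtful pair and by 0.39 (SE 0.21, adjusted p = 0.836) with it.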

How the data were processed

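The authors mapped paired unstranded reads to mm10 with STAR and deposited raw counts per gene from featureCounts. The deposited TPM, made by the authors, scale by gene length and were used to compare levels between genes. Of 22 labelled libraries, 20 have a column. The deposited tables also hold the authors' DESeq2 fold changes and p values, which were not used. Without strand, reads of overlapping genes cannot be told apart.

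Each series was modelled on its own with edgeR 4.0.16 under R 4.3.3, using TMM scaling and the terms litter and genotype. A gene entered the test with 10 or more counts in 4 or more libraries, and a call needs a Benjamini-Hochberg adjusted p under 0.05 over all genes. SE is the fold change's size over the square root of F. DESeq2 1.42.0, other scalings and filters, sex, no litter and left-out libraries were alternatives. Fits were tested on simulated data. The study took each library from a separate pup. Correlations used log2 CPM with a prior count of 2. Gene positions are GENCODE mm10 coordinates. Named are all 10 members, of each list every called gene and up to 4 others of smallest p in a series, the 8 genes most like *Fkbp5*, and *Snrpn*, *Xist* and *Eif2s3y*. Members and lists were chosen with earlier results of these data known.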

Additional observations from a re-analysis of the deposited data

Results flagged for a closer look

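In 40 groups of libraries (10 genes in 4 groups), 3 had a library that stood apart from the others of its group by Dixon's criterion, where chance gives about 1 in 20. *Zbtb16* was 10.6 CPM in the library labelled 1_3_IC, below the other PWS-IC libraries at 20.4 to 21.5 CPM. *Cebpd* was 4.27 CPM in the library labelled 1_7_IC, above the other wild-type libraries at 1.93 to 2.13 CPM. Both are the libraries whose *Snrpn* and sex-linked counts go against their labels. *Pdk4* was 4.66 CPM in the wild-type library 1_5_IC, below the others at 5.23 to 5.35 CPM.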

How the results depend on the processing

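The number of members called stayed at 0 in PWS-cr under every alternative run. In PWS-IC it was 1 (*Cebpd*) without a filter on low counts, where edgeR called 471 of 42507 genes, and 1 without 1_3_IC and 1_7_IC, with edgeR and with DESeq2, against 0 as labelled. For the difference between models it was 1 with DESeq2 without that pair, where 61 of 23574 genes were called, against 0. The cause was not tested. Over all genes, calls in PWS-IC numbered 0 as labelled, 1 with DESeq2, 53 over the 7 libraries, 174 with sex and 223 with DESeq2 there; in PWS-cr they were 3, against 7 with DESeq2 and 10 without a filter; for the difference they were 0, 3 with DESeq2, 87 without a filter and 43 without the pair.

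Some fold changes turned sign. In PWS-cr, *Cdkn1a* was -0.050 without litter, and *Errfi1* was 0.000743 without a filter, 0.000845 without litter and 0.00257 with sex. In the difference between models, *Pdk4* was -0.0065 with sex and *Cdkn1a* -0.0747 without the pair and with sex. When each library was left out in turn, the log2 fold changes in PWS-cr ran from -0.017 to 0.062 for *Sgk1*, -0.0070 to 0.063 for *Tsc22d3*, -0.061 to 0.15 for *Klf9*, -0.11 to 0.029 for *Cebpd*, -0.067 to 0.096 for *Cdkn1a* and -0.038 to 0.0039 for *Errfi1*. In PWS-IC they ran from -0.079 to 0.29 for *Zbtb16* and -0.13 to 0.56 for *Hif3a*, over the 7 libraries from -0.15 to 0.12 for *Cdkn1a*, and in the difference from -0.11 to 0.18 for *Pdk4*.

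Correlations with *Fkbp5* turned sign in the PWS-cr series for *Sgk1* (-0.014 within litters, -0.26 without the 2 libraries farthest from the median) and *Tsc22d3* (-0.50 without those 2), and in the PWS-IC series for *Tsc22d3* (-0.18), *Cdkn1a* (-0.59) and *Errfi1* (-0.044) without those 2 and for *Cdkn1a* (-0.40) without the doubtful pair. No paired analysis was possible because replicate numbers only name pups, and litter already enters each fit as a term.

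The fit without the pair in doubt was planned with earlier results known, and its DESeq2 and leave-one-out fits were added after seeing the data. Over those 7 libraries, *Cebpd* rests on 3 PWS-IC pups in 2 litters and few counts, and sex and genotype largely coincide.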

Other observations

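Genes of neighbouring responses gave few calls over the 7 PWS-IC libraries. Of 10 hypoxia-responsive genes, edgeR called *Slc2a1*, the glucose transporter GLUT1, at a log2 fold change of 0.54 (adjusted p = 0.0330), where 0.242% of all genes were called. Its levels were 52.4 ± 3.80 CPM in PWS-IC and 36.7 ± 3.81 CPM in wild-type brains (SD, n = 3 and 4), and as labelled its log2 fold change was 0.41 (adjusted p = 0.565). *Adm* and *Vegfa*, a vasodilator peptide and a vessel growth factor, had 0.49 and 0.30 at an unadjusted p under 0.05, and 5 of the 10 fold changes were above 0. In PWS-cr, 5 of the 10 were above 0 as well, with 0 called and 0 at an unadjusted p under 0.05.

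Of 10 immediate early genes, edgeR called 0 in PWS-cr and 0 in PWS-IC, with 1 higher at an unadjusted p under 0.05 in each (*Nr4a1* at 0.16 and *Ier2* at 0.46 on the log2 scale). Over the 7 libraries *Nr4a1*, an orphan nuclear receptor, was 0.25 and *Ier2* also 0.25 (unadjusted p = 0.103), while *Arc*, a synaptic activity gene, was -0.49 and *Btg2*, an antiproliferative gene, was -0.36.

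Of 10 p53 target genes other than *Cdkn1a*, edgeR called 0 in either model, with 0 at an unadjusted p under 0.05 in PWS-cr and 1, *Zmat3* at -0.28, in PWS-IC as labelled. Over the 7 libraries *Trp53inp1* was 0.32 (unadjusted p = 0.00044), *Sesn2* was -0.36 and *Zmat3* was -0.29.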
